A study of Mus musculus with 124 samples.

Results

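The SLC25 mitochondrial carriers are a family of solute transporters, and its members were taken as every gene whose symbol starts with Slc25a and a number. In cortex 41 of 17108 named genes qualified and in liver 41 of 13338, and 40 were measured in both. Slc25a18 was measured in cortex alone and Slc25a48 in liver alone. The GENCODE M21 annotation of mouse build GRCm38 lists 47 protein-coding genes of the family, of which 42 were measured in at least 1 tissue and 5 are not analysed here.

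Cerebral cortex and liver were taken from the same 62 mice, 11 to 12 weeks old and fed freely under 12 h of light and 12 h of darkness. Gentle handling during the first 6 h of the light phase, T24 to T30 of the experiment's clock, kept 36 mice from sleeping. Of these, 3 were sampled midway (T27), 3 when handling stopped (T30), and 3 at each of 10 recovery times: 36, 42, 48, 54, 60, 66, 72, 78, 192 and 198 h. The other 26 mice were undisturbed and sampled on the baseline day at ZT0 (8 mice), ZT3 (3), ZT6 (5), ZT12 (5) and ZT18 (5), where ZT (zeitgeber time) counts hours of the light cycle from lights on. The ZT0 group pools 4 mice labelled T0 with 4 labelled T24, the start and the end of the baseline day. Every deprived group was compared with the undisturbed group of its own ZT. The labels used here give no genotype or strain, and deprived mice sampled at T60, T66, T192 or T198 all belong to label batch 2, those of the other times to batch 1. Single mice are called by their label codes, such as T30S1 for a deprived mouse of T30 and T6N4 or J76N1 for undisturbed mice of ZT6.

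Carriers of this family sit, with few exceptions, in the inner mitochondrial membrane, where each exchanges or co-transports a small set of metabolites between cytosol and matrix. They move ADP against ATP, bring in phosphate, export citrate, run the malate-aspartate shuttle, and take in carnitine esters, cofactors and iron. In liver they feed the urea cycle, fatty acid oxidation and gluconeogenesis. In cortex they supply oxidative ATP synthesis and the handling of glutamate and aspartate. Values are log2 CPM (reads of a gene scaled to the library's total, on a log2 scale) as deposited, and a change is called where the limma adjusted p (Benjamini-Hochberg over all named genes of the tissue) is under 0.05. In bulk tissue, fewer cells of a type and less RNA per cell cannot be told apart. The tissues carried their own markers: the hepatocyte markers summed to 91500 to 101000 CPM in T30 livers and 84200 to 103000 CPM in ZT6 livers, while Alb averaged -3.71 log2 CPM in cortex, and Snap25 averaged 11.97 log2 CPM in cortex and was not in the liver table.

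The carriers differed widely in level between the tissues, as the plot of level per length shows. In undisturbed cortex the highest levels per kb of exon were those of Slc25a4 (7.56 log2 CPM per kb), the ADP/ATP carrier of muscle and nerve, Slc25a23 (6.33), an ATP-Mg/phosphate carrier, Slc25a5 (6.28), the more widespread ADP/ATP carrier, Slc25a3 (5.76), the phosphate carrier, and Slc25a11 (5.08), the oxoglutarate carrier of the malate-aspartate shuttle. The lowest there were Slc25a21 (-3.69), the oxodicarboxylate carrier, Slc25a32 (-1.24), the folate or FAD carrier, and Slc25a13 (-1.05), the liver form of the aspartate/glutamate carrier. In undisturbed liver Slc25a5 led (7.83 log2 CPM per kb), followed by Slc25a39 (6.64), a glutathione carrier, Slc25a1 (6.19), the citrate carrier, Slc25a13 (5.97) and Slc25a15 (5.90), the ornithine carrier of the urea cycle. Slc25a36 (-1.11), a pyrimidine nucleotide carrier, Slc25a29 (-1.23), a carrier of basic amino acids, and Slc25a53 (-2.31), a relative of the NAD carriers, were lowest in liver. Reads of Slc25a4 and Slc25a5, which are close in sequence, may be split by the counting, so both levels are uncertain.

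**Figure D1:**
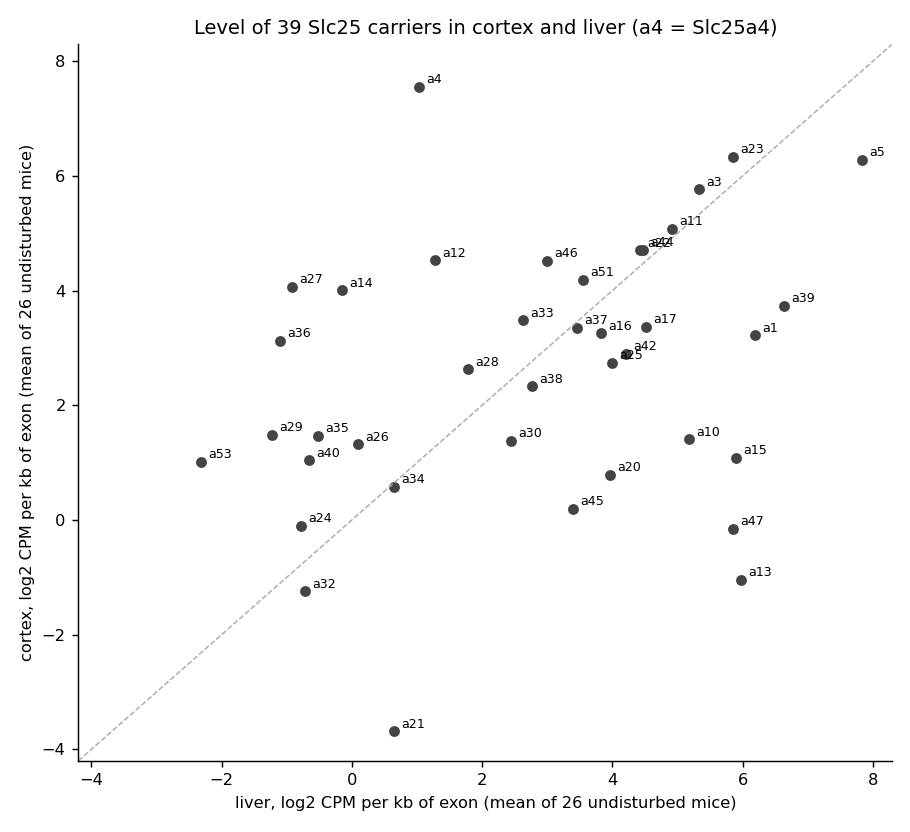
Level of the carriers measured in both tissues, as log2 CPM per kb of exon (mean of 26 undisturbed mice per tissue), cortex on the vertical and liver on the horizontal axis, with the line of equal values dashed. The tables were normalised separately, and Slc25a4 at the top left (7.56 in cortex) and Slc25a13 and Slc25a47 at the lower right (5.97 and 5.85 in liver) lie farthest from the line.

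Of the 40 shared carriers, 16 differed by over 4-fold in mean level between the undisturbed tissues, 7 higher in cortex and 9 higher in liver. This is a description, since the 2 tables were normalised separately and a level difference across them was not tested. The share of all shared genes over 4-fold was not counted, so the number does not set the carriers apart from other genes. The cortex-minus-liver difference was 6.53 (log2) for Slc25a4, 4.99 for Slc25a27, 4.24 for Slc25a36 and 4.15 for Slc25a14. Slc25a27 and Slc25a14 are the uncoupling-protein-like carriers named for brain. It was -7.02 for Slc25a13, -6.00 for Slc25a47, a carrier found mainly in hepatocytes, -4.81 for Slc25a15 and -4.34 for Slc25a21. The paired forms of the aspartate/glutamate carrier were opposite in this respect, with 3.25 for Slc25a12 and -7.02 for Slc25a13.

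Slc25a47 (chromosome 12, 108836046 to 108856815, plus strand) and Slc25a29 (chromosome 12, 108825873 to 108835883, minus strand) lie side by side on opposite strands, with 162 bases between their outermost GENCODE ends in GRCm38. The RefSeq promoters lie farther apart, at 108850879 to 108851178 for Slc25a47 and 108835827 to 108836126 for Slc25a29. Their levels ran opposite between the tissues, -0.15 and 1.48 log2 CPM per kb in cortex for Slc25a47 and Slc25a29, and 5.85 and -1.23 in liver.

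In undisturbed mice carriers varied with time of day in both tissues, over wider ranges in liver. By the limma F test over the 5 control times, 19 of 41 passed in cortex (46.3%, against 41.9% of all named genes) and 26 of 41 in liver (63.4%, against 52% of all named genes). In both tissues 12 were called, 30% of the 40 shared carriers, against 24.8% of the 12194 genes in both tables. Among those called, the range over the day had a median of 0.20 (log2) and a highest value of 0.30 in cortex, against a median of 0.47 and a highest value of 1.73 in liver. In cortex no called carrier exceeded a 2-fold range, and in liver 5 did. The share of all called genes over 2-fold was not counted, so these counts do not set the carriers apart from other genes. By role, the liver calls took in 5 of 6 carriers listed with the di- and tricarboxylates (2 of these 5, Slc25a34 and Slc25a35, have no settled substrate), all 3 measured carriers of aspartate and glutamate, all 4 of iron and glutathione, 6 of 10 of nucleotides, NAD and cofactors and 2 of 6 of the ADP/ATP and phosphate group. In cortex the same groups gave 3 of 6 (Slc25a35 among them), 1 of 4, 1 of 4, 6 of 10 and 1 of 6, and all 3 uncoupling-protein-like carriers were called there, against 1 of 3 in liver.

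Of the 26 called in liver, 15 were highest at ZT12, the end of the light phase (57.7%, against 29.3% of all called liver genes), and with libraries centred on their median 16 were. The other 11 were highest at ZT0 (3), ZT3 (2), ZT6 (3) or ZT18 (3). In cortex 9 of 19 were highest at ZT18 (47.4%, against 29.1% of all called cortex genes) and 6 at ZT12. Of the 12 called in both tissues, 5 had their highest level at the same time (41.7%, against 28.5% of the 3029 genes called in both).

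Slc25a47 had the widest daily range in liver, 1.73 (log2; 3.32-fold; adjusted p = 6.5e-08 by limma's F test). Its liver libraries stood at 7.97, 8.49, 8.27, 8.39 and 8.79 log2 CPM at ZT6 and at 6.89, 6.58, 6.87, 6.22 and 6.69 log2 CPM at ZT18. Every ZT6 library was above every ZT18 library. Slc25a51, which brings NAD into the matrix, was highest at ZT12, at 6.75, 7.11, 6.53, 6.56 and 7.11 log2 CPM, against 5.68, 5.62 and 5.67 log2 CPM at ZT3. Its range was 1.13 (adjusted p = 3.8e-09), and no ZT12 library overlapped any at ZT3. Slc25a35, a carrier without an assigned substrate, was low in liver throughout and ranged over 1.30, highest at ZT18 and lowest at ZT12 (means 2.05 and 0.75 log2 CPM; adjusted p = 0.00011). Rangrf, which shares exon bases with it on the opposite strand, was also highest at ZT18 in liver (range 1.11, adjusted p = 0.00054), and its part in this range was not tested. Slc25a32 ranged over 1.15 with its peak at ZT12 (adjusted p = 9.0e-06), and Slc25a34, another carrier without a settled substrate, over 1.04 with its peak at ZT6 and its low at ZT3 (adjusted p = 0.0045). Slc25a22, a glutamate carrier, ranged over 0.87 and was highest at ZT3 (adjusted p = 1.2e-07). Slc25a27 ranged over 0.52 (adjusted p = 0.032), but its liver call ended without any one of J76N2, T6N3, T0N1, T0N9, T18N2, T18N4 and T3N4, with adjusted p up to 0.081, and with no batch term (0.0511).

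In cortex the called ranges were small. Slc25a29 ranged over 0.30 (adjusted p = 0.0032) and Slc25a10, the dicarboxylate carrier, over 0.30 (adjusted p = 0.021), by limma's F test. Slc25a53 ranged over 0.25 (adjusted p = 2.1e-06), Slc25a42, a carrier of coenzyme A, over 0.24 (adjusted p = 0.0011), Slc25a27 over 0.23 (adjusted p = 2.5e-05) and Slc25a17, a peroxisomal carrier of cofactors, over 0.23 (adjusted p = 5.9e-06). Slc25a35 ranged over 0.22 (adjusted p = 0.013) and Slc25a38, a glycine carrier of haem synthesis, over 0.22 (adjusted p = 0.011). The cortex call of Slc25a10 ended without T3N2 or T3N3 (adjusted p = 0.069 and 0.058), and with batch 1 controls alone the calls of Slc25a10, Slc25a35 and Slc25a38 had adjusted p = 0.089, 0.19 and 0.23. The 4 measured choroid plexus markers were also highest in ZT3 cortices, as Slc25a10 was: Ttr ranged over 3.43 (adjusted p = 0.0011), Clic6 over 1.86 (0.0041), Kl over 1.22 (0.00091) and Kcnj13 over 1.17 (0.012). Their part in the cortex ranges was not tested.

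The time-of-day profile differed between cortex and liver in 25 of the 40 shared carriers by a limma interaction F test (48.6% of the genes tested). The smallest adjusted p-values were those of Slc25a51 (1.2e-10), Slc25a22 (1.1e-09), Slc25a5 (2.1e-08), Slc25a47 (3.4e-07), Slc25a39 (2.3e-06) and Slc25a32 (3.7e-05). For Slc25a51 the range was 0.11 in cortex and 1.13 in liver. For Slc25a5 it was 0.04 in cortex and 0.36 in liver.

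**Figure D2:**
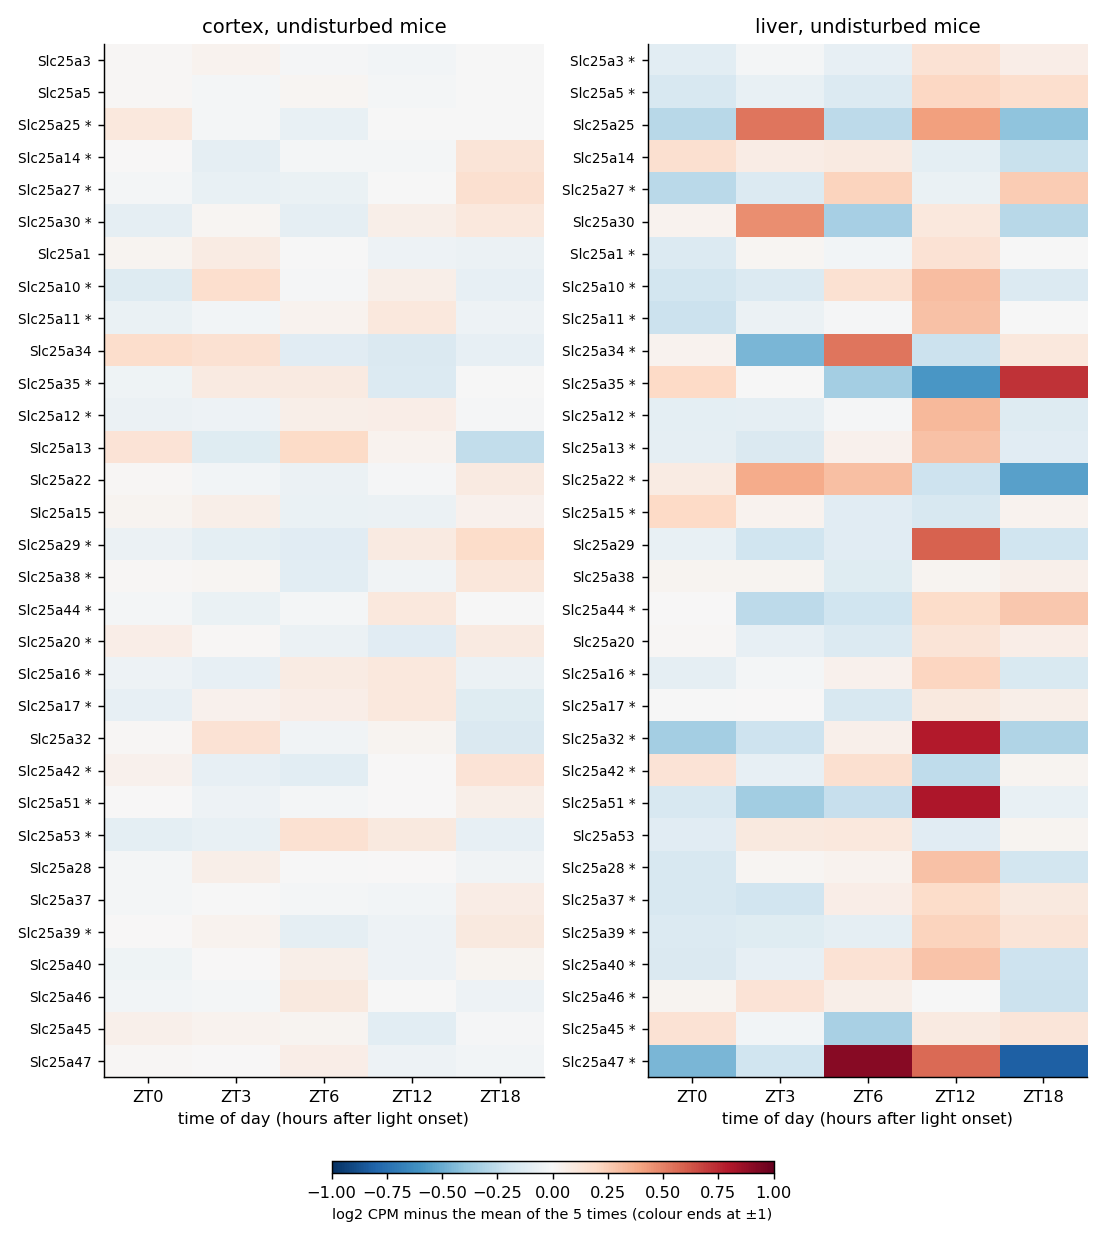
Time-of-day profile of carriers called in at least 1 tissue in undisturbed mice, as the mean log2 CPM at ZT0, 3, 6, 12 and 18 minus the mean of the 5 times, cortex on the left and liver on the right; an asterisk marks adjusted p under 0.05 and carriers are ordered by role. Liver colours are stronger, strongest for Slc25a47, Slc25a35, Slc25a51 and Slc25a32, and 15 of the 26 called in liver are highest at ZT12.

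Sleep deprivation changed carriers in both tissues up to T42 at the latest, as the plot of the share called by time shows. In cortex 8 of 41 were called at T27, against 16.4% of all named genes; 4 were higher (8.59% of all) and 4 lower (7.84% of all). At T30, 10 were called, against 32.4% of all; 4 were higher (15.7% of all) and 6 lower (16.8% of all). At T36, 6 were called, against 12.5% of all, 2 higher (6.9% of all) and 4 lower (5.58% of all), and at T42 only Slc25a27, lower (0.392% of all lower, 1.03% called in all). In liver 2 were called at T27, both higher (0.847% of all higher, 0.652% lower, 1.5% called in all). At T30, 10 were called, against 15.8% of all; 5 were higher (7.84% of all) and 5 lower (7.95% of all). At T36, 1 was called, lower (1.52% of all lower, 1.64% higher, 3.16% called in all), and at T42 none (0% of all). The cortex shares were thus near or under those of all genes at T27 and T30, and the liver share at T30 was 24.4%.

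These counts hang on single mice. In cortex the T27 count was 4 without T27S2, 5 without T27S5, T3N3 or T3N4 and 3 without T3N2, the T36 count was 1 without T36S1 and 2 without T36S2, and the T42 count was 0 without T42S6 or T18N8. In liver the T30 count was 4 without T30S1 and 6 without T30S4 or T6N4. The liver T27 count was 1 without T27S2, T27S3, T3N3 or T3N4, and the liver T36 count was 0 without T36S1, T36S2 or T12N2, 2 without T12N1 or T12N5 and 3 without T36S4. The cortex T30 count stayed between 9 and 11.

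From T48 on, limma called no carrier in either tissue; 1.49% of all cortex genes and 0.015% of all liver genes were called at T48 and 0% at every later time. At an unadjusted limma p under 0.05, 7, 6, 7, 2, 3, 2, 2 and 4 carriers passed in cortex from T48 to T198, and 4, 5, 1, 3, 1, 3, 0 and 1 in liver. The share of all genes at that unadjusted threshold is not given here, so these counts do not set the carriers apart from other genes. Without T0N9 1 carrier was called in cortex at T48, and without T54S4 2 at T54.

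Family medians were near 0 at T30. The median log2 change at T30 was -0.01 over the 41 cortex carriers and -0.01 over all cortex genes, and -0.01 over the 41 liver carriers and 0.00 over all liver genes. The median absolute change at T30 was 0.09 (log2) in cortex carriers and 0.14 in all cortex genes, against 0.19 in liver carriers and 0.20 in all liver genes.

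**Figure D3:**
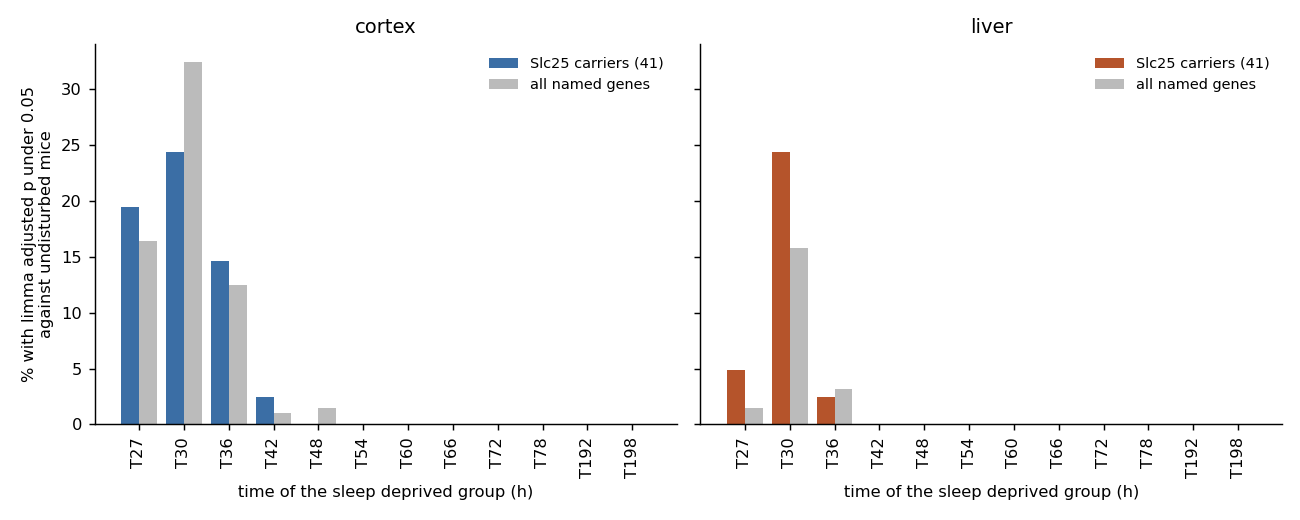
Percentage of the 41 carriers (coloured bars) and of all named genes (grey bars) with limma adjusted p under 0.05 against undisturbed mice of the same ZT, for the 12 sleep-deprived times, cortex on the left and liver on the right. Both peak at T30, where carriers reach 24.4% in each tissue against 32.4% of all cortex genes and 15.8% of all liver genes.

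Slc25a30, an uncoupling-protein-like carrier first described in kidney, had the highest rise of the family, and it was confined to liver among the contrasts called here. It lies on chromosome 14 (75760117 to 75787037, minus strand, GRCm38). In liver at T30 its libraries stood at 7.92, 7.00 and 7.09 log2 CPM in deprived mice, against 4.39, 4.61, 3.13, 4.92 and 4.60 log2 CPM in undisturbed mice at ZT6. Every deprived library was above every control, by 2 log2 units or more. The limma log2 fold change was 2.89 ± 0.62 (SE; 7.42-fold; adjusted p = 0.0010), and it remained past the threshold under every alternative run, with adjusted p between 0.00044 and 0.020. The lowest T30 value was exceeded by 1 of the other 59 liver libraries, a deprived one of T36, and the highest of all 26 undisturbed livers was 5.85.

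The liver rise of Slc25a30 did not pass the test on either side of T30. At T27 the libraries stood at 5.17, 6.97 and 5.58 log2 CPM in deprived mice and 4.57, 5.85 and 4.95 in ZT3 controls, and the groups overlapped (log2 fold change 0.78 ± 0.68 SE, adjusted p = 0.74 by limma). At T36, 6 h into recovery, they stood at 5.96, 7.25 and 3.58 log2 CPM in deprived mice and 5.03, 3.31, 5.55, 5.18 and 4.78 in ZT12 controls. One deprived library was the highest of both groups and another lay below 4 of the 5 controls (0.71 ± 0.62, adjusted p = 0.59). From T42 to T198 its 27 deprived livers lay between 2.71 and 6.25 log2 CPM, and no contrast passed. Undisturbed livers also spread widely, from 3.13 to 5.85 with a median of 4.80 log2 CPM, and the SD over controls of 0.77 was the highest of the 41 liver carriers (median 0.24). That spread showed no time of day by limma's F test (adjusted p = 0.79).

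In cortex Slc25a30 was lower and nearly flat. Deprived cortices stood at 3.54, 3.40 and 3.51 log2 CPM at T30, against 3.56, 3.59, 3.54, 3.41 and 3.40 log2 CPM at ZT6, and the groups overlapped (log2 fold change -0.02 ± 0.07 SE, adjusted p = 0.89 by limma). Over all times deprived cortices ranged from 3.29 to 3.69 log2 CPM and undisturbed cortices from 3.39 to 3.85. A small time-of-day range of 0.20 passed limma's F test in cortex (adjusted p = 0.0086), but not with batch 1 controls alone (adjusted p = 0.066). The cortex change minus the liver change at T30 was -2.91 ± 0.64 (SE; limma interaction, adjusted p = 0.00089), and it held under each alternative run.

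**Figure D4:**
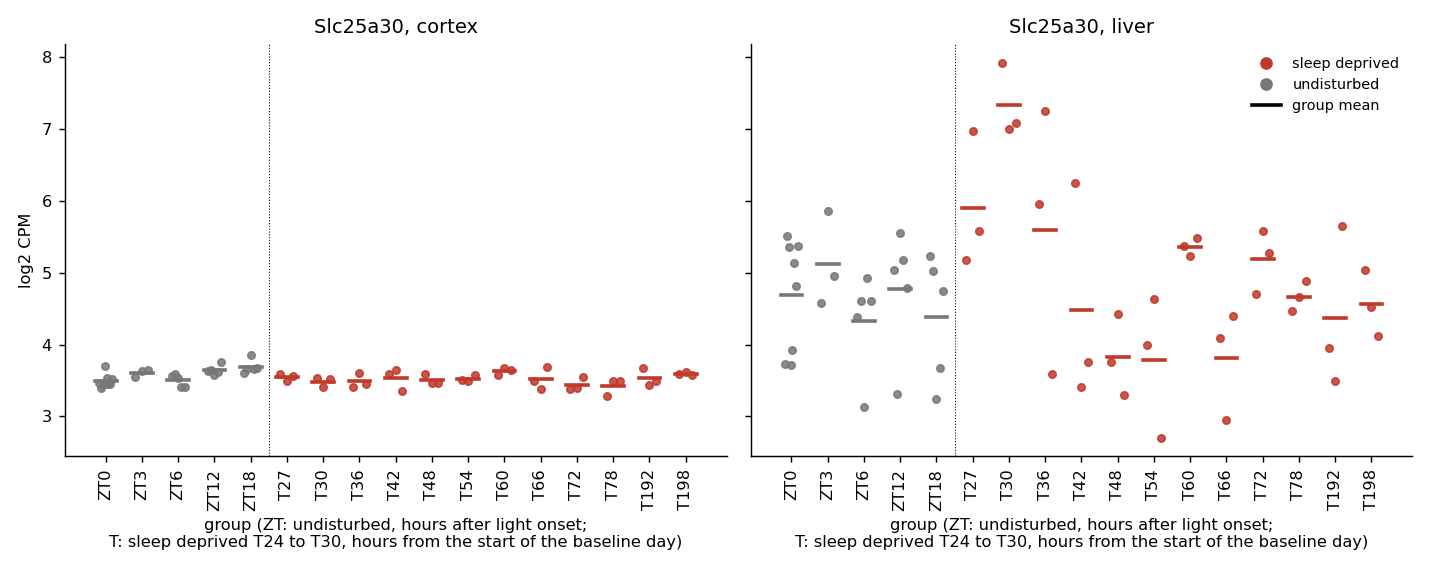
Slc25a30 in every library, as log2 CPM, cortex on the left and liver on the right; red points are sleep-deprived mice by sampling time in h, grey points undisturbed mice by ZT, and horizontal lines are group means. The 3 liver libraries of T30 lie between 7.00 and 7.92, above all 26 undisturbed livers, while cortex stays between 3.29 and 3.85.

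Over the 17 liver group means, the carriers most like Slc25a30 were Slc25a33 (Pearson r = 0.585), a pyrimidine nucleotide carrier, Slc25a25 (r = 0.573), a calcium-sensitive ATP-Mg/phosphate carrier, and Slc25a20 (r = 0.547), which exchanges carnitine and acylcarnitine. Inverse correlations with Slc25a30 were larger in size for Slc25a48 (r = -0.784), Slc25a23 (r = -0.688) and Slc25a37 (r = -0.628). All of these are descriptions over 17 means of the same libraries. Slc25a25 in liver shared the wide spread between mice, with an SD over controls of 0.76. Its liver libraries at T30 stood at 7.73, 7.03 and 7.90 log2 CPM in deprived mice and 5.55, 7.07, 7.72, 7.76 and 5.85 in ZT6 controls, and the groups overlapped (0.71 ± 0.49 SE, adjusted p = 0.34 by limma).

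Promoter sequences were available for 33 of the 42 measured carriers, from RefSeq on GRCm38.p6, each with 250 bases before and 50 after an annotated start. They were searched on both strands for 8 motifs. The E-box CACGTG of clock factors was in 7.15% of all 32851 promoters and in 7 of the 43 promoters listed for the measured carriers. Of these 7, 2 are overlapping Slc25a14 promoters that hold the same site, and the 43 belong to only 33 carriers. The cyclic AMP response element (CRE) TGACGTCA was in 1.79% of all promoters and in 2 of the 43, one each of Slc25a25 and Slc25a36. The glucocorticoid half-site AGAACA was in 19.0% of all promoters and in 2 of the 43. The D-box TTATGTAA (0.938% of all promoters), the RORE core TAGGTCA (2.61%), the forkhead site GTAAACA (3.65%), the heat shock pair GAANNTTC (7.86%) and the nuclear receptor site DR1 (0.0396%) had no match in the 43. A match is a description of letters. The promoters of Slc25a30, the carrier with the highest liver rise, and of Slc25a25, the carrier with the highest cortex rise that held in every setting, are printed 5′ to 3′, with motif matches in capitals: Slc25a30 (minus strand, chr14:75786988-75787287), in which no searched motif matched, and the Slc25a25 start that holds the CRE, 1 of its 3 listed (minus strand, chr2:32424017-32424316).
Slc25a30: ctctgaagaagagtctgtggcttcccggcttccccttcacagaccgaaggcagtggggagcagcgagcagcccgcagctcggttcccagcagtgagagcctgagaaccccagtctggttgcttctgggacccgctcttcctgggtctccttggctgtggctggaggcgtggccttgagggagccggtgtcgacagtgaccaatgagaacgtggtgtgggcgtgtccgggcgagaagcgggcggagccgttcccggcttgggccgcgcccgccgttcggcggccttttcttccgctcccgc
Slc25a25: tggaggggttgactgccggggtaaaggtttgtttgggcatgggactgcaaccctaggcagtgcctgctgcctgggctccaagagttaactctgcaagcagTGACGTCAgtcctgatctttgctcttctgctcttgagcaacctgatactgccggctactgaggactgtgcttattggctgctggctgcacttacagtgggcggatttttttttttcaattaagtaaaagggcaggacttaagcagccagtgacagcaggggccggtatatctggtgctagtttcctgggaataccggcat

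In the ADP/ATP and phosphate group, 2 of 6 carriers rose in cortex at T27 and at T30 and none of 6 in liver. The shares of all genes called at these times are given above, and counts over 6 carriers are too small to set the group apart from them. Slc25a25 stood at 5.88, 6.14 and 5.98 log2 CPM in T27 cortices, against 5.72, 5.75 and 5.56 in ZT3 cortices, and at 5.88, 5.95 and 5.98 in T30 cortices, against 5.62, 5.68, 5.47, 5.80 and 5.56 in ZT6 cortices. Deprived libraries were above all controls at both times. The log2 fold changes were 0.32 ± 0.07 (SE, adjusted p = 0.0015 by limma) and 0.31 ± 0.07 (adjusted p = 0.00036), and both held under each alternative run. Slc25a3 rose by 0.14 ± 0.03 at T30 (adjusted p = 0.0015) and by 0.14 ± 0.03 at T36 (adjusted p = 0.0052), and the T36 call ended without T36S1 (adjusted p = 0.064). Its T27 rise of 0.11 (adjusted p = 0.043) ended without T27S3, T27S5, T3N2 or T3N4 (adjusted p up to 0.34) and with libraries centred on their median (adjusted p = 0.069). In liver at T30, Slc25a24, another ATP-Mg/phosphate carrier, had a log2 fold change of -0.69 ± 0.30 (adjusted p = 0.11) and Slc25a4 one of -0.37 ± 0.20 (adjusted p = 0.21).

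Among the 6 carriers listed with the di- and tricarboxylates and oxoglutarate, Slc25a35 and Slc25a10 fell in cortex at T27 and Slc25a35 and Slc25a11 at T30, while in liver Slc25a34 rose at T27 and Slc25a10 and Slc25a11 fell at T30. Slc25a34 and Slc25a35 are on this list without a settled substrate. Slc25a35 stood at 3.06, 2.80 and 3.08 log2 CPM in T27 cortices, against 3.50, 3.52 and 3.32 in ZT3 cortices, and at 3.11, 3.08 and 2.90 in T30 cortices, against 3.37, 3.33, 3.56, 3.40 and 3.59 in ZT6 cortices. Every deprived library was below every control. The log2 fold changes were -0.47 ± 0.08 (adjusted p = 2.1e-05 by limma) and -0.42 ± 0.07 (adjusted p = 7.8e-06), both kept under each alternative run. In the annotation 31.3% of the exon bases of Slc25a35 overlap Rangrf on the opposite strand, and the sources used here do not say whether the counting used strand. Rangrf itself had a log2 fold change of 0.28 ± 0.11 in cortex at T30 (adjusted p = 0.043), the other direction.

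Slc25a11 fell in cortex at T30 by 0.19 ± 0.04 (log2; adjusted p = 0.00035 by limma), with 6.02, 6.06 and 5.96 log2 CPM in deprived mice against 6.16, 6.22, 6.20, 6.23 and 6.22 log2 CPM in controls. At T36 it fell by 0.17 ± 0.04 (adjusted p = 0.0050), but not without T36S2 (adjusted p = 0.073). In liver at T30 it fell by 0.22 ± 0.07 (adjusted p = 0.024), a call that ended without T30S1, T30S4, T6N2 or T6N4 (adjusted p up to 0.17). Slc25a10 fell in liver at T30 to 6.52, 6.73 and 6.80 log2 CPM, against 6.96, 6.94, 7.12, 7.35 and 7.26 in ZT6 livers. All 3 deprived livers were below the 5 controls (-0.49 ± 0.12, adjusted p = 0.0044; 0.068 without T30S1). Its fall in cortex at T27 of 0.32 ± 0.10 (adjusted p = 0.021) ended without T27S2, T27S3, T3N2 or T3N3 (adjusted p up to 0.11).

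Slc25a34 had the largest called change at T27, in liver. Its libraries stood at 3.64, 3.10 and 2.77 log2 CPM in deprived livers, against 1.41, 1.50 and 1.78 log2 CPM in ZT3 livers. Every deprived library was above every control, with a log2 fold change of 1.60 ± 0.28 (SE; 3.04-fold; adjusted p = 0.00081 by limma), kept under each alternative run. ZT3 was the low point of its day, and the undisturbed mean at ZT6 was 2.55 log2 CPM. At T30 it averaged 2.80 ± 0.14 log2 CPM in deprived livers (SD, n = 3) and 2.55 ± 0.41 at ZT6 (SD, n = 5), and the groups overlapped (adjusted p = 0.67). In cortex it moved the other way at T27 (-0.24, not called), and the cortex change minus the liver change was -1.85 ± 0.33 (limma interaction, adjusted p = 0.00023). In cortex at T36 Slc25a34 stood at 2.57, 2.38 and 2.03 log2 CPM, against 1.74, 1.71, 1.53, 2.16 and 2.10 at ZT12 (0.48 ± 0.15, adjusted p = 0.028), a call that ended without T36S1, T36S2, T12N1, T12N2 or T12N4 (adjusted p up to 0.23).

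Of the aspartate and glutamate carriers, Slc25a12 fell in both tissues at T30. Deprived cortices stood at 7.22, 7.24 and 7.26 log2 CPM, against 7.51, 7.48, 7.45, 7.41 and 7.45 in ZT6 cortices. The groups did not overlap, and the log2 fold change was -0.22 ± 0.03 (adjusted p = 8.9e-07 by limma). In liver, where it is the minor form, it was -0.36 ± 0.11 (adjusted p = 0.022), which ended without T30S1, T30S4 or T6N4 (adjusted p up to 0.11) and with same-batch controls (0.0502). In cortex it also fell at T27 by 0.11 (adjusted p = 0.022), though not without T27S2, T27S5, T3N2 or T3N3 (adjusted p up to 0.27), and at T36 by 0.12 (adjusted p = 0.010), though not without T36S1 or T36S2 (adjusted p = 0.056 and 0.064). Slc25a13 had a log2 fold change of -0.28 ± 0.18 in cortex (adjusted p = 0.23) and 0.08 ± 0.09 in liver (adjusted p = 0.62) at T30.

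The carriers of nucleotides, NAD and cofactors gave 1 rise and 3 falls of 10 in cortex at T30, and 2 rises and 1 fall of 10 in liver. Beside the shares of all genes called at T30, given above, counts over 10 carriers do not set this role apart from other genes. Slc25a53 stood at 3.78, 3.86 and 3.75 log2 CPM in T30 cortices, against 4.16, 4.13, 4.27, 4.12 and 4.16 in ZT6 cortices. The groups were apart, with a log2 fold change of -0.37 ± 0.05 (adjusted p = 4.0e-07 by limma). Slc25a42 rose to 5.75, 5.58 and 5.61 log2 CPM in T30 cortices, against 5.44, 5.29, 5.29, 5.46 and 5.37 in ZT6 cortices (0.28 ± 0.06, adjusted p = 0.00037). It had risen by 0.24 ± 0.07 at T27 (adjusted p = 0.0086), a call that ended without T3N3 or T3N4 (adjusted p = 0.059 and 0.057). Slc25a17 fell by 0.21 ± 0.05 at T30 in cortex (adjusted p = 0.00066), and its T27 fall of 0.17 (adjusted p = 0.022) ended without T27S2, T27S5, T3N2 or T3N4 (adjusted p up to 0.13). Slc25a16, a carrier linked to coenzyme A, fell in both tissues at T30, by 0.17 ± 0.05 in cortex (adjusted p = 0.0049) and by 0.23 ± 0.07 in liver (adjusted p = 0.012), the liver call not without T30S3 (adjusted p = 0.078).

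In liver Slc25a51 stood at 6.32, 6.03 and 6.42 log2 CPM in T30 livers, against 5.76, 5.80, 5.98, 5.84 and 5.50 in ZT6 livers (0.51 ± 0.16, adjusted p = 0.023). That call ended without T30S1, T30S4 or T6N4 (adjusted p up to 0.12) and with controls of the same batch (adjusted p = 0.063).

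Slc25a37, mitoferrin 1, which imports iron for haem and iron-sulfur clusters, changed in opposite directions in the tissues at T30. In liver it stood at 5.63, 5.76 and 5.49 log2 CPM in deprived mice, against 5.94, 5.88, 6.55, 5.93 and 6.29 in ZT6 controls. All deprived livers were below all controls (-0.56 ± 0.14 SE, adjusted p = 0.0050 by limma), and the call held under each alternative run. In cortex it stood at 6.07, 5.97 and 6.09 log2 CPM, against 5.89, 5.98, 5.96, 5.88 and 5.90, and the groups overlapped (0.12 ± 0.05, adjusted p = 0.038). That cortex call ended without T30S1, T30S4, T6N2, J76N1 or J76N2 (adjusted p up to 0.18) and with same-batch controls (0.14). The difference between the tissues was 0.68 ± 0.15 (cortex change minus liver change, limma interaction, adjusted p = 0.00094). Slc25a37 is abundant in red cell precursors, and the 5 erythroid markers summed to 199 to 211 CPM in T30 livers and 184 to 207 CPM in ZT6 livers, with 0 of 5 called. Alas2 made up most of that sum, with a ZT6 liver mean of 7.05 log2 CPM, against 5.08 for Hbb-bs, the next highest. The part of red cell precursors in the liver fall was not tested. Slc25a28, the other mitoferrin, had -0.13 ± 0.06 in cortex (adjusted p = 0.11) and -0.12 ± 0.11 in liver (adjusted p = 0.51).

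Slc25a20, the only carrier of carnitine and acylcarnitine, stood at 6.49, 6.32 and 6.74 log2 CPM in T30 livers, against 5.83, 6.05, 6.12, 6.23 and 6.25 in ZT6 livers (0.33 ± 0.12, adjusted p = 0.046 by limma). The groups did not overlap, but the call ended with the liver factor of 3 levels as a covariate (adjusted p = 0.073), with same-batch controls (0.088), with median centring (0.060), without a mean trend (0.053), and without any one of T30S1, T30S4, T6N2, T6N3, T6N4 and J76N1 (up to 0.29). In cortex it had 0.14 ± 0.07 (adjusted p = 0.14). Slc25a45 rose in liver at T30 to 5.32, 4.93 and 4.70 log2 CPM, against 4.68, 4.51, 4.39, 4.57 and 4.46 (0.48 ± 0.14, adjusted p = 0.012; 0.22 without T30S1).

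Slc25a47 rose in liver at T27. Its libraries stood at 8.88, 8.20 and 8.27 log2 CPM in deprived mice, against 7.65, 7.08 and 7.08 in ZT3 controls. The groups did not overlap (1.18 ± 0.32 SE, 2.26-fold, adjusted p = 0.038 by limma), and the undisturbed mean at ZT6 was 8.38 log2 CPM. The call ended with the liver factor as a covariate (adjusted p = 0.065) and without any one of T27S2, T27S3, T27S5, T3N3 and T3N4 (up to 0.23). At T30 its deprived livers stood at 7.85, 7.36 and 9.07 log2 CPM, against 7.97, 8.49, 8.27, 8.39 and 8.79 at ZT6, and the groups overlapped.

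The carriers of basic amino acids (2 measured) and of other amino acids (2 measured) gave no call at T30 in either tissue. The shares of all genes called at T30 are given above, and lists this short cannot be set apart from them. Slc25a29 had 0.14 ± 0.09 in cortex (adjusted p = 0.24) and 0.17 ± 0.39 in liver (adjusted p = 0.81), and Slc25a15 0.08 ± 0.07 in cortex (adjusted p = 0.42) and 0.19 ± 0.11 in liver (adjusted p = 0.26), by limma. Slc25a38 had 0.11 ± 0.06 in cortex (adjusted p = 0.18) and 0.15 ± 0.10 in liver (adjusted p = 0.35). Slc25a44, which carries branched-chain amino acids, had 0.07 ± 0.04 in cortex (adjusted p = 0.16). At T36 in liver it stood at 5.88, 5.87 and 6.00 log2 CPM, against 6.46, 6.65, 6.51, 6.35 and 6.36 in ZT12 controls. All deprived livers were below all controls (-0.53 ± 0.15, adjusted p = 0.038), but the call ended with the liver factor (adjusted p = 0.076) and without T36S1, T36S2, T12N2 or T12N4 (up to 0.12).

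The uncoupling-protein-like carriers of brain moved little at T30. Slc25a14 had 0.09 ± 0.05 in cortex (adjusted p = 0.14 by limma) and 0.30 ± 0.21 in liver (adjusted p = 0.37). Its cortex rise of 0.14 at T27 (adjusted p = 0.047) ended without T27S2, T27S3, T3N2 or T3N4 (adjusted p up to 0.27), with median centring (0.074) and with same-batch controls (0.052). Slc25a27 was the member called latest. It fell in cortex at T36 to 5.79, 5.89 and 5.88 log2 CPM, against 6.11, 6.07, 5.99, 6.03 and 6.01 (-0.19 ± 0.05, adjusted p = 0.0046; 0.068 without T36S1), and at T42 to 5.94, 6.10 and 5.99 log2 CPM, against 6.16, 6.18, 6.21, 6.21 and 6.26 (-0.19 ± 0.05, adjusted p = 0.028). The groups did not overlap at either time, but the T42 call ended with same-batch controls (adjusted p = 0.11) and without T42S2, T42S6 or T18N8 (up to 0.19). Slc25a46 of the outer membrane had -0.08 ± 0.06 in cortex (adjusted p = 0.31) and -0.06 ± 0.10 in liver (adjusted p = 0.74) at T30.

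**Figure D5:**
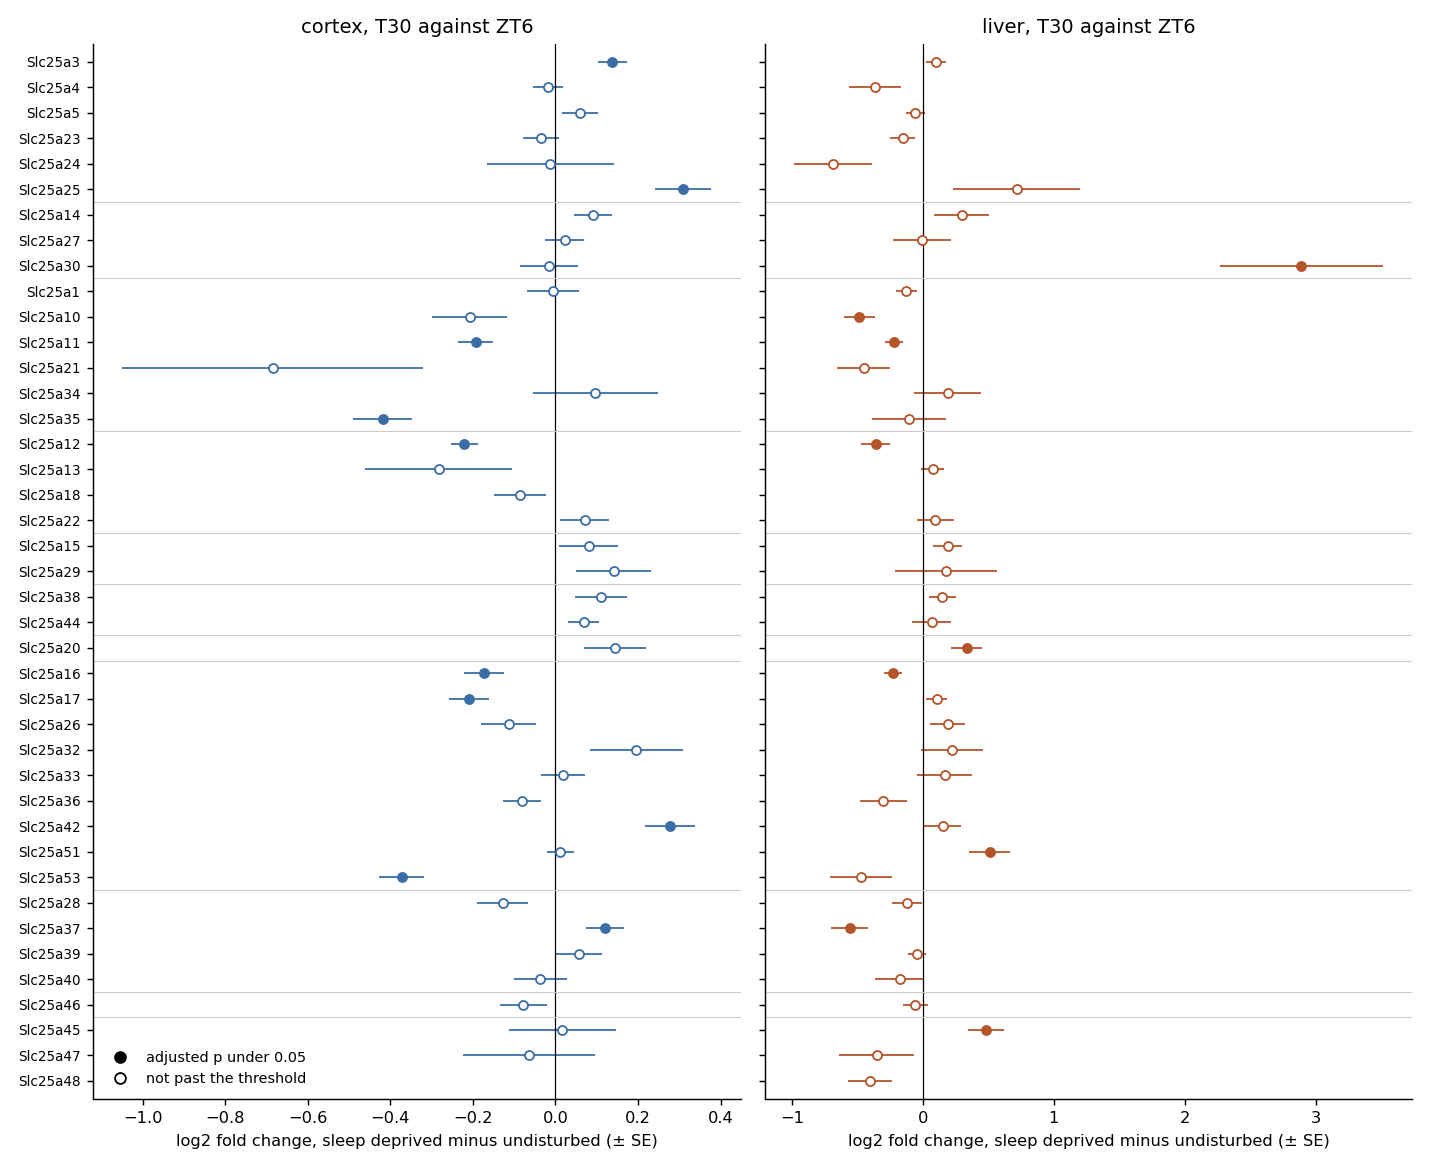
Log2 fold change at T30, sleep deprived minus undisturbed at ZT6, of the measured carriers in cortex (left) and liver (right), with bars of 1 SE, ordered by role with grey lines between roles; filled points have limma adjusted p under 0.05. The horizontal scales differ: cortex calls lie between -0.42 and 0.31, and in liver Slc25a30 at 2.89 stands apart from the other calls shown, which lie between -0.56 and 0.51.

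Of the 10 carriers called at T30 in each tissue, 4 were shared: Slc25a11, Slc25a12 and Slc25a16, lower in both, and Slc25a37, higher in cortex and lower in liver. They are 40% of the carriers called in each tissue, while over the genes in both tables the 789 shared calls are 19.3% of the cortex calls and 41.8% of the liver calls. A limma interaction tested the difference itself, and at T30 it called 5 of 40 carriers (12.2% of the genes tested), among them Slc25a30, Slc25a37, Slc25a17 (-0.31 ± 0.09, adjusted p = 0.014) and Slc25a51 (-0.50 ± 0.17, adjusted p = 0.034), as the cortex change minus the liver change. The Slc25a17 difference ended without T30S1 or T6N4 (adjusted p = 0.19 and 0.055) and that of Slc25a51 without T30S1, T30S4, T6N4 or J76N2 (up to 0.18). At T27 it called 1, Slc25a34 (2.12% of the genes tested), and at T42 none (0% of the genes tested). At T36 it called 2 (4.55% of the genes tested). These were Slc25a53 (-0.85 ± 0.24, adjusted p = 0.021), which ended without T36S1, T36S2 or T12N2 (up to 0.092), and Slc25a44 (0.51 ± 0.16, adjusted p = 0.041), which ended with the mouse as a block (adjusted p = 0.0505), with the liver factor (0.058), with median centring (0.055), and without any one of T36S1, T36S2, T36S4, T12N1, T12N2 and T12N4 (up to 0.11). The interaction counts moved as well, to 2 at T27 without T27S5, to 3 at T30 without T30S1 or T6N4, and at T36 to 0 without T36S1, T36S2 or T12N2, to 1 without T12N1 or T12N4 and to 5 without T12N5. Within the tissues Slc25a53 had -0.12 in cortex and 0.73 in liver at T36, neither called.

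Genes that work beside the carriers were counted from lists of other membrane transporters, shuttle enzymes, the carnitine system, the urea cycle, citrate use and carrier import. Of 39 measured in cortex, 2 were higher and 1 lower at T27 (16.4% of all genes called), 4 higher and 6 lower at T30 (32.4% of all) and 1 higher and 6 lower at T36 (12.5% of all). Of 40 measured in liver, none was called at T27 (1.5% of all genes called), 1 was higher and 1 lower at T30 (15.8% of all) and 1 was lower at T36 (3.16% of all). In cortex at T30 Gpd1, of the glycerol phosphate shuttle, rose by 0.43 ± 0.06 (log2; adjusted p = 3.1e-07 by limma) and Sfxn3, a sideroflexin, by 0.22 ± 0.05 (adjusted p = 0.00023). Sfxn1 and Sfxn2, also sideroflexins, were called lower, as were Asl and Ass1 of the urea cycle. Ucp2, an uncoupling protein, rose by 0.39 ± 0.11 (adjusted p = 0.0040), while the import chaperone Timm9 fell by 0.24 ± 0.04 (adjusted p = 4.6e-06), Tomm20, an import receptor, fell by 0.19 ± 0.04 (adjusted p = 2.7e-05) and Tomm40, the import pore, rose by 0.26 ± 0.06 (adjusted p = 0.00021). In liver at T30 Cpt2, the matrix enzyme that takes up what Slc25a20 delivers, rose by 0.30 ± 0.11 (adjusted p = 0.048) and Mcu, the calcium uniporter, fell by 0.34 ± 0.12 (adjusted p = 0.038). In cortex 2 of 3 microglial markers were called lower at T30, P2ry12 (-0.39 ± 0.07, adjusted p = 2.7e-05) and Cx3cr1 (-0.18 ± 0.06, adjusted p = 0.0083). The remaining marker of that list had 0.05 and was not called. The 3 markers summed to 165 to 170 CPM in T30 cortices and 178 to 182 CPM in ZT6 cortices, and their part in the cortex changes was not tested. Other markers also moved there: Mog of oligodendrocytes (-0.35, adjusted p = 0.024), Syt1 of neurons (-0.18, adjusted p = 0.00060) and Sox9, listed for cholangiocytes (-0.24, adjusted p = 0.039), were lower at T30. Of these lists, 1 of 3 oligodendrocyte and 1 of 5 neuron markers were called there, and the lists summed to 1500 to 2000 and 7770 to 7940 CPM in T30 cortices, against 1620 to 2190 and 7900 to 8560 CPM in ZT6 cortices. The 3 astrocyte markers, a list that does not hold Sox9, had 0.01 to 0.20 in cortex at T30 with none called. At T36 Gfap was higher (0.55, adjusted p = 0.0024), with 1 of 3 astrocyte markers called. P2ry12 was lower (-0.21, adjusted p = 0.046), with 1 of 3 microglial markers called and a highest change of 0.08 in that list. Stab2, listed for liver endothelium, was also lower. The 3 oligodendrocyte markers had -0.23 to -0.30 with none called, and summed to 1590 to 1690 CPM in T36 cortices, against 1670 to 2150 CPM in ZT12 cortices. In liver at T30, of the lists of other cell types only Syt1 was called (-1.50, adjusted p = 2.5e-05 by limma). The 2 measured neuron markers, Syt1 and Rbfox3, summed to 6.18 to 10.4 CPM in T30 livers and 14.1 to 23.1 CPM in ZT6 livers. Syt1 made up most of that sum, with ZT6 liver means of 4.33 log2 CPM for Syt1 and -0.95 for Rbfox3. Syt1 also ranged over 2.25 (log2) by time of day in undisturbed livers (adjusted p = 3.2e-12 by limma's F test). The part of these markers in the carrier changes was not tested. The choroid plexus markers (4 of 5 measured in cortex) summed to 5.54 to 7.01 CPM in T27 cortices and 9.53 to 125 CPM in ZT3 cortices, with Ttr, Clic6 and Kcnj13 called lower (-3.35, -2.10 and -1.27; adjusted p = 0.0025, 0.0018 and 0.0031), and their part in the T27 cortex results was not tested.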

How the data were processed

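Each of 62 mice gave 1 cortex and 1 liver library. Per the labels' protocols, stranded libraries of polyadenylated RNA were read as single reads; that text describes liver, and the cortex libraries are labelled as coming from an earlier study. The submitters' processing notes name fastp, STAR 2.7.0e, edgeR and build GRCm38 (mm10). The authors deposited log2 CPM, normalised by tissue, so read counts and depth are unknown. Unnamed entries (77 in cortex, 35 in liver) were dropped. Counts over the family include 1 carrier whose results are not reported here.

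The deposited values show an earlier adjustment. In cortex 1 dimension of the 62 had been removed, that of the label batch. In liver 2 had been, those of a factor that no label names, whose levels hold 50, 8 and 4 libraries. Liver p-values from fits without it are too small, so it was tried as a covariate.

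Log2 values were tested as deposited, with no pseudocount or filter, in limma 3.58.1 (R 4.3.3; lmFit, eBayes with mean trend): 17 groups and the label batch per tissue, 44 residual degrees of freedom. Deprived groups were contrasted with undisturbed mice of the same ZT, and the 5 control times by an F test (4 df). The tissue interaction used all 124 libraries, 34 groups and the 12194 genes named once in both tables. Tests were two-sided with Benjamini-Hochberg adjustment over all genes and a threshold of 0.05. A fold change includes the batch term, so it can differ from the difference of group means. The scripts were tested on simulated data. Replicates are separate mice, so p-values measure the spread between mice. The same mice gave both tissues, so the mouse pairs the samples. Deviations from group means correlated between tissues with a median of 0.0258 over 62 mice (-0.0879 to 0.161), against -0.00851 for other mice of the group. Centring within groups ties the second value to the first, so their contrast does not test the pairing.

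Members and lists were chosen with earlier results of these data known. Named were Slc25a30, the 8 called carriers of widest daily range per tissue, up to 6 called per direction and time, up to 4 per direction and 6 by time of day in the interactions, the 5 highest and 3 lowest levels per length, up to 2 per role at T30, and 3 by likeness of each sign. Exon lengths and positions came from GENCODE M21. Alternatives were no batch term, no genes in the lowest 20%, a pseudocount of 1 CPM, median centring, no trend, the liver factor, same-batch controls, single libraries left out and a mouse block.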

Additional observations from a re-analysis of the deposited data

Results flagged for a closer look

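The liver response differed from the cortex response in 7 named carriers by the limma interaction, as the cortex log2 change minus the liver log2 change. At T27 this was Slc25a34 (-1.85, adjusted p = 0.00023). At T30 these were Slc25a30 (-2.91, adjusted p = 0.00089), Slc25a37 (0.68, adjusted p = 0.00094), Slc25a17 (-0.31, adjusted p = 0.014) and Slc25a51 (-0.50, adjusted p = 0.034). At T36 these were Slc25a53 (-0.85, adjusted p = 0.021) and Slc25a44 (0.51, adjusted p = 0.041). The calls of Slc25a17, Slc25a51, Slc25a53 and Slc25a44 ended under 2, 4, 3 and 9 of 15 alternatives. All carriers called, over the 40 shared, were 1 at T27, 5 at T30 and 2 at T36, and the shares of all genes tested are given above beside these counts. The time-of-day profile differed between the tissues in 25 of 40 carriers, a count whose share over all genes tested is also given above. The smallest limma adjusted p-values were those of Slc25a51 (1.24e-10), Slc25a22 (1.10e-09), Slc25a5 (2.09e-08), Slc25a47 (3.35e-07), Slc25a39 (2.28e-06) and Slc25a32 (3.67e-05).

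A single undisturbed library stood far from the rest of its group in 12 of 244 groups tested, where chance gives about 1 in 20. In cortex, in log2 CPM, these were Slc25a13 at ZT0 (0.37 in T0N9, median of the others 1.12), Slc25a16 at ZT6 (5.45 in J76N1, others 5.63), Slc25a29 at ZT6 (2.55 in T6N4, others 2.81), Slc25a30 at ZT0 (3.71 in J70N1, others 3.45), Slc25a34 at ZT18 (2.29 in T18N2, others 1.83) and Slc25a53 at ZT6 (4.27 in T6N4, others 4.14). In liver they were Slc25a11 at ZT12 (6.15 in T12N5, others 6.35), Slc25a12 at ZT18 (3.80 in T18N4, others 4.10), Slc25a13 at ZT0 (7.52 in T0N3, others 7.85), Slc25a29 at ZT0 (-1.29 in T0N5, others 0.31), Slc25a38 at ZT12 (4.47 in T12N1, others 4.19) and Slc25a46 at ZT18 (4.91 in T18N2, others 5.32).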

How the results depend on the processing

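Of the 65 called results of named carriers, 34 kept their call under each alternative run, 31 lost it under at least 1, and 0 reversed. The number run was not the same for all. Among kept calls, Slc25a35 by time of day in liver and Slc25a32 by time of day between the tissues had 32, against 33 for Slc25a47 in both tests. The count of carriers called in cortex at T42, 1, was 2 with no batch term, without the lowest 20% of genes, with median centring and with no mean trend, and 0 with same-batch controls. In cortex at T48 it was 1 with no batch term, against 0. In liver the T27 count of 2 was 1 with the factor of 3 levels, and the T36 count of 1 was 0 with that factor and 2 with same-batch controls. The interaction count at T27, 1, was 0 without the lowest 20% of genes, 2 with a pseudocount of 1 CPM and 3 with median centring; Slc25a34 was not among the genes kept by that filter. The T36 interaction count of 2 was 1 with median centring, with the liver factor and with the mouse as a replicate block. The mouse block gave 1, 5, 1 and 0 interaction calls at T27, T30, T36 and T42 and 23 by time of day, and among the named carriers it ended that of Slc25a44 alone.

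With single libraries left out, the cortex count ranged over 3 to 6 at T27, 9 to 11 at T30, 1 to 6 at T36, 0 to 1 at T42 and T48, 0 to 2 at T54 and 16 to 21 for control times. The liver count ranged over 1 to 2 at T27, 4 to 11 at T30, 0 to 3 at T36 and 25 to 27 for control times, and was 0 at other times. The interaction counts ranged over 1 to 2, 3 to 5, 0 to 5 and 0 at T27, T30, T36 and T42, and over 20 to 25 by time of day. The cause of these moves was not tested. Depth is unknown, so the counting error of low carriers such as Slc25a34 and Slc25a35 cannot be given.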
